A study of Mus musculus with 7 samples.

Results

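The imprinted growth-control genes described here were 10 of the 23358 gene entries in the deposited table. They were taken by symbol: H19, Igf2, Meg3, Rian, Dlk1, Peg3, Plagl1, Cdkn1c, Mest and Grb10. The Tgfbr2-deficient group, 4 libraries, lacked the TGF-β receptor gene Tgfbr2 by its label, and the control group held 3 libraries. Both groups were brain cells from C57Bl6 mouse embryos at E14.5, labelled endothelial and sorted on TdTomato, the red protein that the Ai14 allele makes once Cre recombinase has acted. RNA was taken from 2000 to 5000 cells per library. The sources used here name neither the Cre driver, nor the deleted part of Tgfbr2, nor the alleles of the controls. The endothelial label went against the markers: the median level of 19 microglia and macrophage markers was 266 FPKM in the Tgfbr2-deficient group and 497 FPKM in the control group, while that of 20 endothelial markers was 14.0 FPKM in the Tgfbr2-deficient group and 1.41 FPKM in the control group. FPKM is the number of fragments per kilobase of a transcript, scaled for the size of a library.

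Imprinted genes are transcribed mainly from the copy inherited from 1 parent, and many sit in clusters that share a control region methylated on the copy of a single parent. In mouse, several paternally expressed members such as Igf2 promote growth of the embryo, and several maternally expressed members such as Cdkn1c and Grb10 restrain it. Many of these genes are strongly expressed in embryonic mesenchyme and other growing tissue and fall in level after birth. In these libraries the 2 parental copies were not told apart, so every value is the sum over both.

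All 10 members passed as higher in Tgfbr2-deficient cells. Their levels had a median FPKM of 77.8 in the Tgfbr2-deficient group and 14.4 in the control group. The ratio of the 2 levels ran between 3.20 for H19 and 9.82 for Mest. Genes were tested where the authors gave the status OK and at least 1 FPKM in either group, and called at a q-value under 0.05. All 10 members passed these conditions, and the authors' deposited table gives each of them q = 0.00029, its lowest value. It is shared by 2357 tested genes, so the members could not be ranked by it. Rian, at 0.954 FPKM in the control group, met the minimum only through its 3.65 FPKM in the Tgfbr2-deficient group. Of the 13356 tested genes, 23.9% were called higher and 14.7% lower, against 10 and 0 of the 10 members. The members were chosen with earlier results of these data known, so these counts are a description only. On the log2 scale of (FPKM + 1), which pulls genes near 1 FPKM towards 0, the median fold of the members was 2.41 and that of all tested genes was −0.08.

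The table gives 1 FPKM value per group, made by the authors from the libraries of that group. Values per library were not analysed here, so no spread between libraries can be set beside a level, and depth is unknown. Whether libraries of 1 group stem from different embryos is not in the labels, so any spread between libraries behind a q-value may be technical. How the authors' test took that spread into account is not given in the sources used here. Tgfbr2 itself stood at 65.4 FPKM in the Tgfbr2-deficient group and 91.1 FPKM in the control group, and did not pass (q = 0.0953 in the authors' deposited table). In bulk RNA, fewer cells of a type and less RNA per cell cannot be told apart. In the same groups the median log2(FPKM + 1) fold of fibroblast and meningeal markers was 2.58, of endothelial markers 2.66 and of microglia and macrophage markers −1.08, and their part in the levels of the members was not tested.

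**Figure D1:**
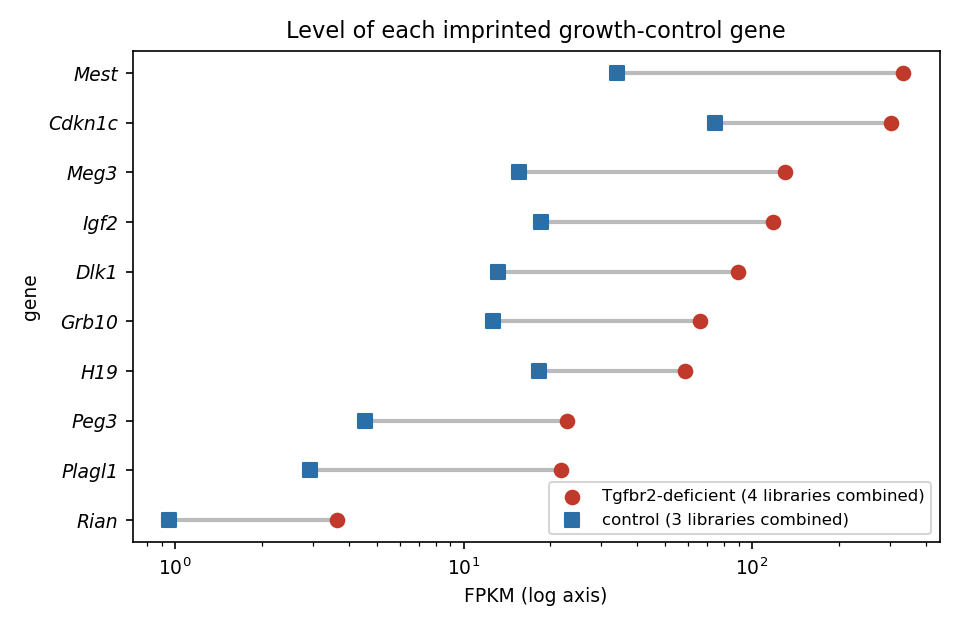
Level of each of the 10 genes in FPKM on a log axis. Red circles are the Tgfbr2-deficient group and blue squares the control group, each a single value that the authors made from 4 and 3 libraries. Every red circle lies to the right of its blue square, with the widest gap at Mest (334 FPKM Tgfbr2-deficient, 34.0 FPKM control).

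Promoters are shown for Meg3 and Peg3, because these were the members in which a searched motif was found. RefSeq start-site windows of GRCm38.p6, from 250 bases before to 50 bases after a start, were matched for 8 of the 10 members, with 15 windows in all. No window was matched for H19 or Cdkn1c. The search took the letters GGGGCCCC, the core of the site bound by ZAC1, the protein of Plagl1. It also took TGACGTCA, the cyclic AMP response element, and TATAAA, the TATA box, each on both strands. The response element and the TATA box were chosen after the sequences were seen. Capitals mark these motifs, which do not overlap each other apart from the TATA box, read on both strands in the same place.
Meg3, chr12:109540746-109541045, plus strand: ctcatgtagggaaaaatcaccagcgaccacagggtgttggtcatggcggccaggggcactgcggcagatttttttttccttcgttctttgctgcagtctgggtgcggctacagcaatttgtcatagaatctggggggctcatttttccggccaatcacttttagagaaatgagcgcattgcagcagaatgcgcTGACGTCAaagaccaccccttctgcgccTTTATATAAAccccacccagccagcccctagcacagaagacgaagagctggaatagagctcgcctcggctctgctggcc
Peg3, chr7:6730370-6730669, minus strand: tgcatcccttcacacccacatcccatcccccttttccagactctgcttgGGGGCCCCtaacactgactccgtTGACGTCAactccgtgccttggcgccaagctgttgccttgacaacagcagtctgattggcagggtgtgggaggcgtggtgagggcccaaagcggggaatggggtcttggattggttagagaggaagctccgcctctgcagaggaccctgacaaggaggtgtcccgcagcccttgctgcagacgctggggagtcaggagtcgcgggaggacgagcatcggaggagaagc

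The ZAC1 core was found in 1 member, Peg3, with its first base 201 bases before the start. It is present in 1.25% of the 27025 genes with a window. The cyclic AMP response element was found in Meg3, 57 bases before the start, and in Peg3, 178 bases before it, against 2.03% of all genes. The TATA box was found in Meg3, at 25 and 29 bases before the start, against 15.7% of all genes. The response element and the TATA box were chosen because they were seen, so these shares are no measure of enrichment. The other 6 members with windows held none of these letters, and these genes passed as higher too. The dinucleotide CG, the target of DNA methylation, was counted between 0 times in the Rian window and 45 times in a Grb10 window. The median over the 15 member windows was 13, and over all 32851 windows it was 7. Some members, such as Igf2 and Mest, hold several windows. The Mest windows from 30737800 and from 30737803 overlap almost fully, so the member windows are not independent. These counts describe the sequence only, since DNA methylation was not measured in these cells.

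Igf2 and Dlk1 are the signalling proteins among the members. Igf2 encodes insulin-like growth factor 2, which drives growth of the embryo and placenta through the type 1 IGF receptor. Igf2 had 118 FPKM in the Tgfbr2-deficient group and 18.5 FPKM in the control group, a log2(FPKM + 1) fold of 2.61. Dlk1 encodes a transmembrane protein with EGF repeats, related to the Notch ligands and best known for holding back fat cell differentiation. Dlk1 had 89.7 FPKM in the Tgfbr2-deficient group and 13.1 FPKM in the control group, a log2(FPKM + 1) fold of 2.68. In control cells both stood close to H19 and Meg3, and in Tgfbr2-deficient cells Igf2 stood above H19 and Dlk1 stood below Meg3. The table's locus for Igf2 spans chromosome 7 from 142650768 to 142670356 of mm10, and GENCODE M21 places the protein-coding gene ENSMUSG00000048583.16 on the minus strand from 142650766 to 142666816. The antisense transcript Igf2os and the sense gene Gm49394 overlap its exons, and the library kits do not mark strand, so their reads cannot be separated. Dlk1 spans chromosome 12 from 109452823 to 109463336 on the plus strand, and no other annotated gene overlaps its exons.

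Cdkn1c and Grb10 are the growth brakes. Cdkn1c encodes p57, an inhibitor of cyclin-dependent kinases that holds cells in G1. It was the most abundant of the 10 genes in control cells and second to Mest in Tgfbr2-deficient cells. Cdkn1c had 303 FPKM in the Tgfbr2-deficient group and 74.3 FPKM in the control group, a log2(FPKM + 1) fold of 2.01. Grb10 encodes an adaptor that binds the insulin and IGF1 receptors and dampens their signal, and in mouse neurons it is read from the paternal copy. Grb10 had 66.0 FPKM in the Tgfbr2-deficient group and 12.7 FPKM in the control group, a log2(FPKM + 1) fold of 2.29. Growth promoters and growth brakes were both at higher levels in the Tgfbr2-deficient group. Cdkn1c spans chromosome 7 from 143458339 to 143461050 on the minus strand, where the antisense gene Gm44732 overlaps its exons. Grb10 spans chromosome 11 from 11930499 to 12037420 on the minus strand.

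Relatives of these proteins from lists of families did not all follow. Among the CDK inhibitors of the CIP/KIP and INK4 families, 5 were tested and 3 were higher, Cdkn1c, Cdkn1a and Cdkn2d. Cdkn1a, which encodes p21, had 38.0 FPKM in the Tgfbr2-deficient group and 20.3 FPKM in the control group. Cdkn2d, which encodes p19-INK4D, had 43.7 FPKM in the Tgfbr2-deficient group and 19.4 FPKM in the control group. Cdkn2c, which encodes p18-INK4C, was lower, at 17.2 FPKM in the Tgfbr2-deficient group and 28.5 FPKM in the control group (q = 0.0167 in the authors' deposited table, so the call ends at q under 0.01). Cdkn1b, which encodes p27, had 6.28 FPKM in the Tgfbr2-deficient group and 4.45 FPKM in the control group and did not pass (q = 0.164 in the authors' deposited table). Cdkn2a, at 0.0318 FPKM in the Tgfbr2-deficient group and 0.0332 FPKM in the control group, and Cdkn2b, at 0.975 FPKM in the Tgfbr2-deficient group and 0.106 FPKM in the control group, were not tested. The ratio of Cdkn1c to Cdkn1b level was 48.2 in the Tgfbr2-deficient group and 16.7 in the control group. Of the GRB7 family of adaptors, Grb14 was higher, at 2.18 FPKM in the Tgfbr2-deficient group and 0.432 FPKM in the control group, and Grb7 was untested at 0.592 FPKM in the Tgfbr2-deficient group and 0.0846 FPKM in the control group. Grb14 reached 1 FPKM only in the Tgfbr2-deficient group. Of the 7 genes of Dlk1, Dlk2 and the Notch ligands, 6 were higher and 0 lower. Dlk2 had 1.68 FPKM in the Tgfbr2-deficient group and 0.688 FPKM in the control group and did not pass (q = 0.38 in the authors' deposited table). Dll1, Dll3 and Dll4 had 8.78, 8.80 and 8.71 FPKM in the Tgfbr2-deficient group, against 2.15, 4.01 and 0.754 FPKM in the control group. Of these, Dll4 reached 1 FPKM only in the Tgfbr2-deficient group. Jag1 and Jag2 had 6.57 and 12.8 FPKM in the Tgfbr2-deficient group, against 1.51 and 2.15 FPKM in the control group.

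Plagl1 and Peg3 encode zinc finger proteins that act in the nucleus. Plagl1 (ZAC1) halts the cell cycle in cultured cells and in mouse regulates other imprinted genes, Igf2, H19, Cdkn1c and Dlk1 among them. Plagl1 had 21.7 FPKM in the Tgfbr2-deficient group and 2.92 FPKM in the control group, a log2(FPKM + 1) fold of 2.53. Its relative Plagl2 was lower, at 10.9 FPKM in the Tgfbr2-deficient group and 17.4 FPKM in the control group, and Plag1 was untested at 0.181 FPKM in the Tgfbr2-deficient group and 0.173 FPKM in the control group. Peg3 takes part in p53-linked cell death and in maternal care in mouse. Peg3 had 22.8 FPKM in the Tgfbr2-deficient group and 4.55 FPKM in the control group, a log2(FPKM + 1) fold of 2.10. Of the 7 protein-coding members these 2 stood lowest in level in both groups. Plagl1 spans chromosome 10 from 13090788 to 13131695 on the plus strand, and Peg3 chromosome 7 from 6705960 to 6730419 on the minus strand.

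Mest, also called Peg1, encodes a membrane protein of the alpha/beta hydrolase fold found in embryonic mesoderm. It had the largest fold of the 10 genes. Mest had 334 FPKM in the Tgfbr2-deficient group and 34.0 FPKM in the control group, a log2(FPKM + 1) fold of 3.26, the 59th highest among the 13356 tested genes. The table's locus for Mest is chromosome 6 from 30733506 to 30748466, on the plus strand. Annotated exons of Copg2, a coat protein gene on the opposite strand, overlap it. Copg2 had 16.7 FPKM in the Tgfbr2-deficient group and 22.5 FPKM in the control group and did not pass (q = 0.104 in the authors' deposited table). The ratio of Mest to Copg2 level was 20.0 in the Tgfbr2-deficient group and 1.51 in the control group.

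H19, Meg3 and Rian are the noncoding members, all expressed from the maternal copy. H19 is a long noncoding RNA that restrains growth in mouse and is the precursor of miR-675. H19 had 58.6 FPKM in the Tgfbr2-deficient group and 18.3 FPKM in the control group, a log2(FPKM + 1) fold of 1.63. Meg3, also called Gtl2, is the first of the long noncoding RNAs of its cluster. Meg3 had 130 FPKM in the Tgfbr2-deficient group and 15.6 FPKM in the control group, a log2(FPKM + 1) fold of 2.98. Rian carries small nucleolar RNAs and was the scarcest member in both groups. Rian had 3.65 FPKM in the Tgfbr2-deficient group and 0.954 FPKM in the control group, a log2(FPKM + 1) fold of 1.25, or 1.83 with 0.1 FPKM added in place of 1. H19 spans chromosome 7 from 142575532 to 142578146 on the minus strand. Meg3 spans chromosome 12 from 109540996 to 109571729 and Rian from 109603945 to 109661711, both on the plus strand.

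The last 3 places in the order of levels were held by Peg3, Plagl1 and Rian in both groups. In Tgfbr2-deficient cells the order ran Mest, Cdkn1c, Meg3, Igf2, Dlk1, Grb10, H19, Peg3, Plagl1, Rian. In control cells the order ran Cdkn1c, Mest, Igf2, H19, Meg3, Dlk1, Grb10, Peg3, Plagl1, Rian. H19 stood 7th and Meg3 3rd in Tgfbr2-deficient cells, against 4th and 5th in control cells. Without values per library, it could not be tested which neighbours in these orders differ. The 5 paternally expressed members had a median log2(FPKM + 1) fold of 2.61, between 2.10 and 3.26, and the 5 maternally expressed members one of 2.01, between 1.25 and 2.98. The ranges overlap, and the difference was not tested.

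Within a cluster the ratios of member levels were unequal between the groups, and whether they differ beyond error could not be tested. The level of Igf2 was 2.02 times that of H19 in the Tgfbr2-deficient group and 1.01 times in the control group. Igf2 and H19 share enhancers and are read from opposite parental copies, with gene centres 83.7 kb apart. The level of Meg3 was 1.45 times that of Dlk1 in the Tgfbr2-deficient group and 1.19 times in the control group. The level of Rian was 0.0281 times that of Meg3 in the Tgfbr2-deficient group and 0.0611 times in the control group. These ratios are of 1 value per group each and carry no error.

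In the cluster on chromosome 12 that holds Dlk1, Meg3 and Rian, 7 genes were listed, 6 were tested, 5 were higher and 0 lower. Begain, at the edge of the cluster, had 5.32 FPKM in the Tgfbr2-deficient group and 1.41 FPKM in the control group. Dio3, which encodes an enzyme that inactivates thyroid hormone, had 2.72 FPKM in the Tgfbr2-deficient group and 0.372 FPKM in the control group. Like Rian, Dio3 reached 1 FPKM only in the Tgfbr2-deficient group. Mirg, the last long noncoding RNA of the cluster, had 1.36 FPKM in the Tgfbr2-deficient group and 0.113 FPKM in the control group and did not pass (q = 0.268 in the authors' deposited table). Rtl1, a retrotransposon-derived gene of placental vessels, was untested at 0.243 FPKM in the Tgfbr2-deficient group and 0.0773 FPKM in the control group. The centres of Meg3 and Dlk1 lie 98.3 kb apart. The order of folds in this cluster depends on the amount added to low levels. Meg3 and Dlk1 led with 1 FPKM added, but with none added the log2 folds in the authors' deposited table are 3.60 for Mirg, 3.06 for Meg3, 2.87 for Dio3 and 2.77 for Dlk1. The median log2 fold of the 6 tested genes is 1.41 with 1 FPKM added and 2.67 with 0.1 FPKM added.

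The stretch of chromosome 7 with H19, Igf2 and Cdkn1c was mixed. Of 14 tested genes 6 were higher, 1 was lower and 7 did not pass, with a median log2(FPKM + 1) fold of 0.58. The higher genes other than members were Osbpl5, a lipid carrier, Th, tyrosine hydroxylase, and Trpm5, an ion channel. Th and Trpm5 reached 1 FPKM only in the Tgfbr2-deficient group. Osbpl5 had 6.08 FPKM in the Tgfbr2-deficient group and 1.38 FPKM in the control group. The lower gene was Ascl2, a transcription factor of the placenta, at 3.50 FPKM in the Tgfbr2-deficient group and 7.56 FPKM in the control group. Slc22a18 and Nap1l4, beside Cdkn1c, had 0.880 and 74.0 FPKM in the Tgfbr2-deficient group, against 1.05 and 84.9 FPKM in the control group, and did not pass.

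**Figure D2:**
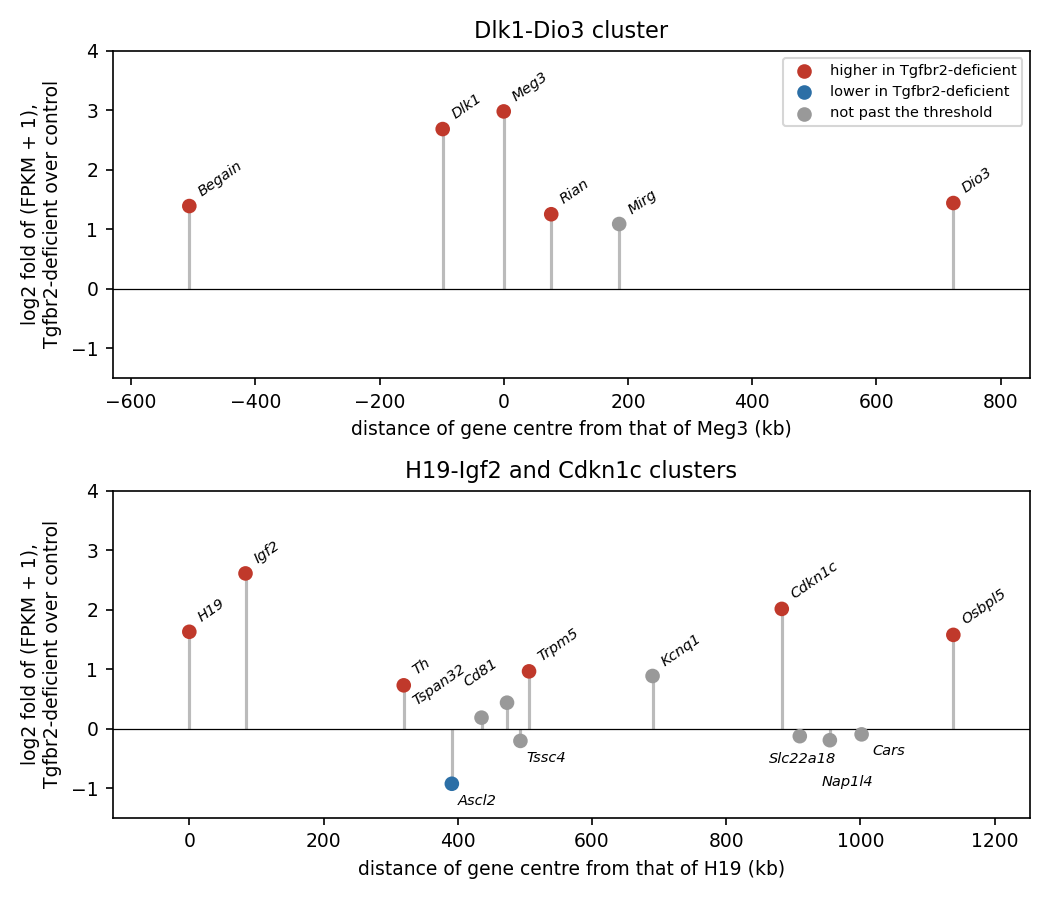
Log2(FPKM + 1) fold, Tgfbr2-deficient over control, against the distance of each tested gene's centre from that of Meg3 (upper panel) or H19 (lower panel) in kb. Red points passed as higher, blue as lower, and grey did not pass. Dlk1 at 2.68 and Meg3 at 2.98 stand highest in the upper panel on this scale, and Igf2 at 2.61 and Cdkn1c at 2.01 in the lower one, where Ascl2 lies below 0 at −0.93.

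The other members' clusters were small. The higher neighbours Zim1, Klf14 and Ddc reached 1 FPKM only in the Tgfbr2-deficient group. In the lowest decile by mean FPKM of the 2 groups 53.6% of all tested genes were higher, and in the second 45.8%. Beside Peg3, Zim1 was higher, at 1.66 FPKM in the Tgfbr2-deficient group and 0.138 FPKM in the control group. Usp29 had 0.743 FPKM in the Tgfbr2-deficient group and 0.264 FPKM in the control group. It was left out here only by the minimum of 1 FPKM, with q = 0.00601 in the authors' deposited table. Beside Mest, the transcription factor gene Klf14 was higher, at 1.22 FPKM in the Tgfbr2-deficient group and 0.102 FPKM in the control group, and Tsga14, at 4.02 FPKM in the Tgfbr2-deficient group and 3.20 FPKM in the control group, did not pass. Beside Grb10, Ddc, which encodes aromatic amino acid decarboxylase, was higher, at 2.71 FPKM in the Tgfbr2-deficient group and 0.655 FPKM in the control group. Cobl, on the other side of Grb10, had 0.859 FPKM in the Tgfbr2-deficient group and 0.249 FPKM in the control group. It was left out here only by the minimum of 1 FPKM, with q = 0.00102 in the authors' deposited table. Beside Plagl1, Phactr2 did not pass, at 4.76 FPKM in the Tgfbr2-deficient group and 4.87 FPKM in the control group.

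MicroRNA genes lie within the loci of H19, Igf2, Meg3, Mest and Rian, and others opposite Rtl1, a neighbour of Meg3 in the same cluster. The sequences shown are those of 3 such genes whose entries had the status OK. Mir431 and Mir434, opposite Rtl1, had that status too and are not shown. Mature sequences from RefSeq, GRCm38.p6, are given with the seed, bases 2 to 8, in capitals. The 6 seeds are all different.
miR-675-5p, in H19: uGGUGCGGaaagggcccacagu
miR-675-3p, in H19: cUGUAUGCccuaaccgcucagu
miR-483-5p, in Igf2: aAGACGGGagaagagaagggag
miR-483-3p, in Igf2: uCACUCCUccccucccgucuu
miR-127-5p, opposite Rtl1: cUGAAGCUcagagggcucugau
miR-127-3p, opposite Rtl1: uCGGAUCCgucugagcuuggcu

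The libraries were primed on poly(A) tails, so these entries count fragments that map to the hairpin and not the mature microRNA. The Mir675 entry, which lies in an H19 exon, had 275 FPKM in the Tgfbr2-deficient group and 220.0 FPKM in the control group and did not pass (q = 0.925 in the authors' deposited table). The Mir483 entry had 70.7 FPKM in the Tgfbr2-deficient group, was listed at 0 in the control group and did not pass (q = 0.265 in the authors' deposited table). Mir770, in a Meg3 exon, ran the other way from its host, listed at 0 in the Tgfbr2-deficient group and at 4.47 FPKM in the control group, and was not tested by the authors. Mir335, within Mest, and Mir370, within Rian, were listed at 0 in both groups. Mir127 had 47.8 FPKM in the Tgfbr2-deficient group, was listed at 0 in the control group and did not pass (q = 0.332 in the authors' deposited table). Between Dlk1 and Dio3 the table lists 58 microRNA entries. Of these, 10 were above 0 only in the Tgfbr2-deficient group, 3 only in the control group, and 45 were listed at 0 in both. The same split over all microRNA entries was not counted and the groups combine 4 and 3 libraries, so the split is a description only. Of the 58 entries 3 had the status OK, and 0 were called.

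The folds of the members were then set against those of all tested genes at the same level, because calls depended on level. Of the 1336 tested genes in the top decile by mean FPKM of the 2 groups, 80 (5.99%) were higher and 549 lower, and Igf2, Meg3, Cdkn1c and Mest were among these 80. In the next decile 77 (5.76%) were higher, H19, Dlk1 and Grb10 among them. Peg3 and Plagl1 lay in the decile between 9.92 and 14.6 FPKM, where 16.9% were higher. Rian lay in the second decile from below, where 45.8% were higher. By size of log2(FPKM + 1) fold, 9 of the 10 members ranked within the top 10% of tested genes, and Rian ranked 1388th. A ratio of levels over 2 was reached by all 10 members and by 22.4% of tested genes.

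**Figure D3:**
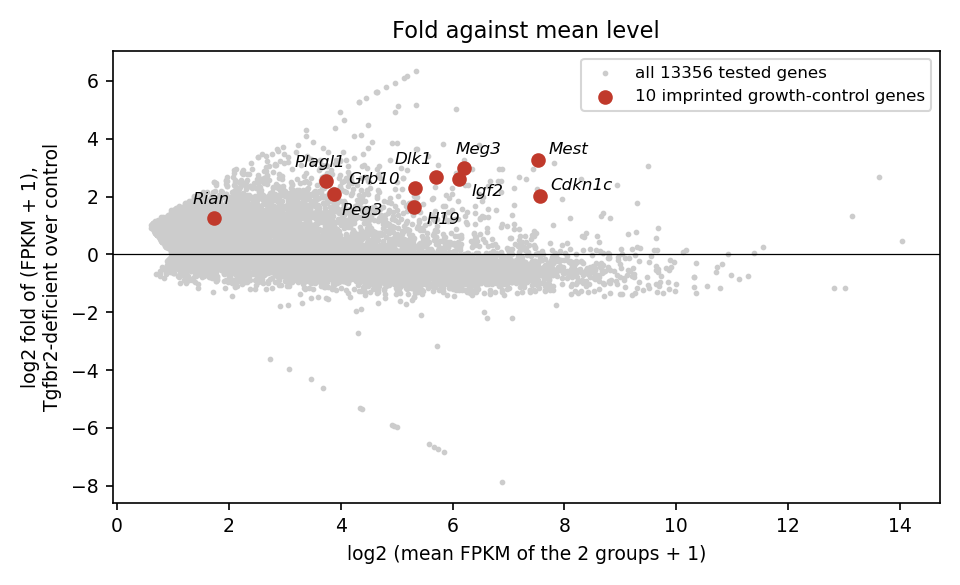
Log2(FPKM + 1) fold, Tgfbr2-deficient over control, against log2 of (mean FPKM of the 2 groups + 1). Grey points are the 13356 tested genes and red points the 10 members, which lie between 1.25 (Rian) and 3.26 (Mest), all above 0.

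Other imprinted genes passed as higher less uniformly, a difference that was not tested. The members and lists were chosen with earlier results of these data known, so this difference cannot be told apart from that choice. Of 47 other imprinted genes tested, taken from lists of paternally and maternally expressed genes, 22 were higher (46.8%), 3 were lower (6.38%) and 22 did not pass. Over all tested genes the shares were 23.9% higher and 14.7% lower. Several of the higher genes, Trpm5, Klf14, Zim1 and Slc22a3 among them, reached the minimum of 1 FPKM only in the Tgfbr2-deficient group. The filter thus admitted them through the group where they were high, while the 3 lower genes reached it in both groups. Calls also depended on level: 53.6% of all tested genes were higher in the lowest decile by mean FPKM, and 45.8% in the second. The median log2(FPKM + 1) fold of the 47 genes was 0.73, against 2.41 for the 10 members and −0.08 for all tested genes. On that scale 2 of the 47, Dcn and Slc22a3, had a fold above the median of the members. Dcn, which encodes the matrix proteoglycan decorin and is also a fibroblast marker, had 63.0 FPKM in the Tgfbr2-deficient group and 7.48 FPKM in the control group. Slc22a3, an organic cation transporter, had 5.71 FPKM in the Tgfbr2-deficient group and 0.153 FPKM in the control group. The abundant imprinted gene Nnat, a small membrane protein of neural tissue, had 635 FPKM in the Tgfbr2-deficient group and 265 FPKM in the control group. Ndn, a growth suppressor of neurons, had 90.7 FPKM in the Tgfbr2-deficient group and 38.5 FPKM in the control group.

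The 3 lower imprinted genes were Ascl2, Pon3 and Gatm, all from the maternally expressed list. Parental origin is that given by the lists, and imprinting of these genes was not measured in these cells. Gatm, which starts creatine synthesis, had 98.1 FPKM in the Tgfbr2-deficient group and 151 FPKM in the control group (q = 0.0172 in the authors' deposited table, so the call ends at q under 0.01). Pon3, a lactonase, had 14.2 FPKM in the Tgfbr2-deficient group and 25.3 FPKM in the control group. By parental origin, 17 of 23 tested paternally expressed genes were higher and 0 lower, with a median log2(FPKM + 1) fold of 1.17. Of 34 tested maternally expressed genes, 15 were higher and 3 lower, with a median of 0.72. Both counts include 5 members each, and the difference between the lists was not tested. Both also include genes that reached 1 FPKM only in the Tgfbr2-deficient group, such as Dio3 and Zim1. Over all tested genes the shares were 23.9% higher and 14.7% lower. Several listed genes share a locus with another gene, such as Igf2r with Airn, so without strand their reads can be mixed. Of the 16 genes of the imprinted gene network, a published mouse set that holds 9 of the 10 members, 14 were higher and 1, Gatm, was lower. Gnas, the stimulatory G protein, at 944 FPKM in the Tgfbr2-deficient group and 643 FPKM in the control group, did not pass (q = 0.159 in the authors' deposited table).

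Of 16 tested genes of the IGF axis 11 were higher and 3 lower, with a median log2(FPKM + 1) fold of 1.10, or 1.86 with 0.1 FPKM added. Over all tested genes the shares were 23.9% higher and 14.7% lower. Igf2r, the imprinted receptor that clears IGF2 by taking it to lysosomes, had 12 FPKM in the Tgfbr2-deficient group and 1.68 FPKM in the control group. The level of Igf2 was 9.82 times that of Igf2r in the Tgfbr2-deficient group and 11.0 times in the control group. Igfbp2 and Igfbp3, binding proteins that carry IGFs, had 226 and 74.5 FPKM in the Tgfbr2-deficient group, against 45.7 and 5.07 FPKM in the control group. Igf1, the other ligand, had 34.1 FPKM in the Tgfbr2-deficient group and 38.8 FPKM in the control group and did not pass (q = 0.719 in the authors' deposited table). The lower genes were Igfbp4, at 632 FPKM in the Tgfbr2-deficient group and 1222 FPKM in the control group, Igf2bp1 and Igf2bp3. Igf2bp1 and Igf2bp3 encode proteins that bind Igf2 mRNA. Igf2bp3 had 24.0 FPKM in the Tgfbr2-deficient group and 40.8 FPKM in the control group. Igf2bp1 had 9.08 FPKM in the Tgfbr2-deficient group and 13.3 FPKM in the control group, and its log2 fold of −0.50 becomes 0.04 when centred on ribosomal protein genes. At q under 0.01 the lower count of the axis is 1, Igf2bp3, and with a log2 fold of at least 1 it is 0.

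Markers of several cell types moved in the same groups as the members. Several of the higher markers, such as Flt1 and Tek, reached 1 FPKM only in the Tgfbr2-deficient group. Of 19 microglia and macrophage markers 17 were lower and 0 higher, with a median log2(FPKM + 1) fold of −1.08, and their summed level was 7007 FPKM in the Tgfbr2-deficient group and 14786 FPKM in the control group. Of 20 endothelial markers 19 were higher and 0 lower, with a median of 2.66 and a summed level of 468 FPKM in the Tgfbr2-deficient group and 88.0 FPKM in the control group. All 17 fibroblast and meningeal markers were higher, with a median of 2.58 and a summed level of 1267 FPKM in the Tgfbr2-deficient group and 164 FPKM in the control group. Of 14 pericyte and smooth muscle markers 10 were higher and 0 lower, with a median of 2.03 and sums of 167 FPKM in the Tgfbr2-deficient group and 25.3 FPKM in the control group.

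All 15 neuron markers were higher, with a median of 1.17 and sums of 351 FPKM in the Tgfbr2-deficient group and 148 FPKM in the control group. Of 14 neural progenitor markers 12 were higher and 0 lower, with a median of 1.11 and sums of 370 FPKM in the Tgfbr2-deficient group and 219 FPKM in the control group. Of 9 tested erythroid markers 8 were higher and 0 lower, with a median of 2.17. Of 10 megakaryocyte and platelet markers 9 were higher and 1, Pf4, was lower, and of 9 mast cell markers 6 were higher and 0 lower, with medians of 3.07 and 3.66. In the erythroid list 3 globin entries carry the status for too many fragments and are listed at 0 in the Tgfbr2-deficient group, which is no measurement of absence. No other marker was listed at 0 in either group. The 10 members summed to 1148 FPKM in the Tgfbr2-deficient group and 195 FPKM in the control group. The part of these cell types in the levels of the members was not tested.

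**Figure D4:**
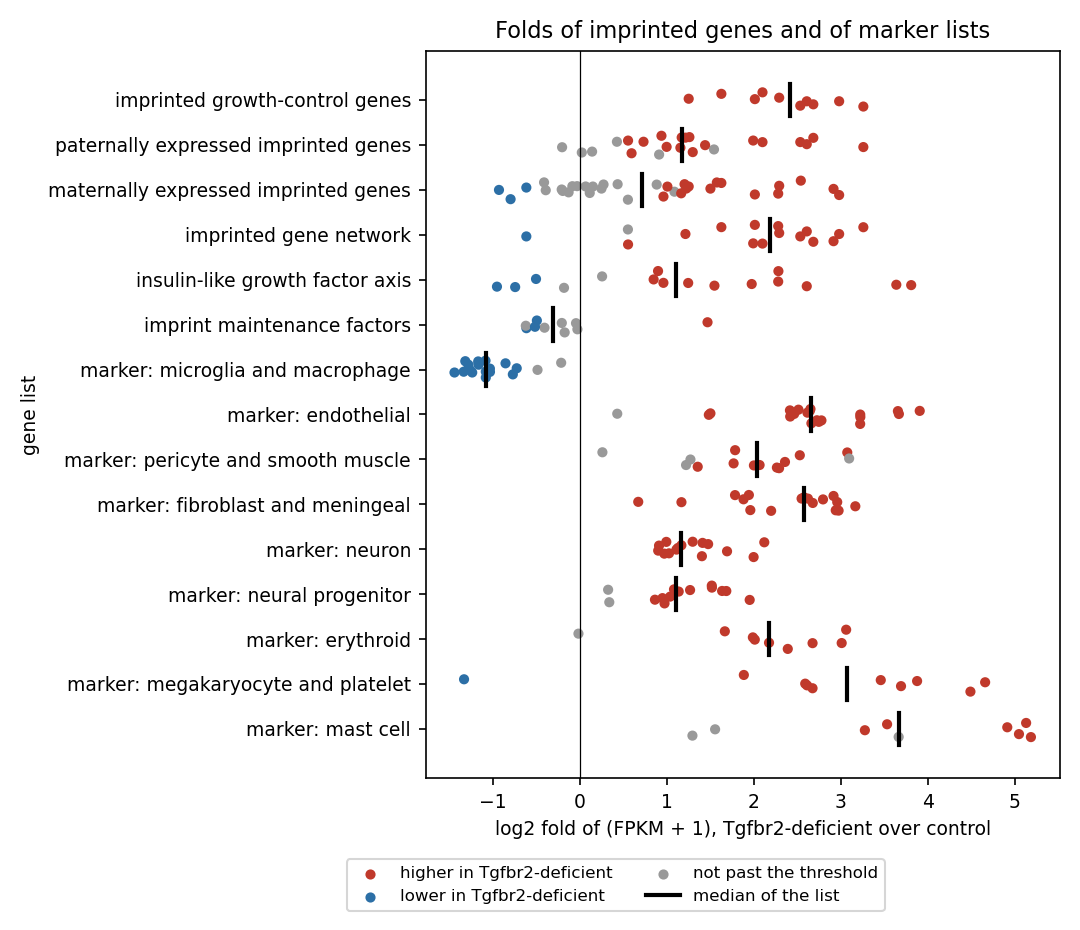
Log2(FPKM + 1) fold, Tgfbr2-deficient over control, of each tested gene in the members, in lists of imprinted and IGF axis genes and in marker lists. Red points passed as higher, blue as lower and grey did not pass, and black bars are list medians. With 1 FPKM added, the medians are 2.41 for the members, 2.03 for the pericyte list, 2.58 for the fibroblast list and −1.08 for the macrophage list. With 0.1 FPKM added, they are 2.52, 2.97, 2.81 and −1.11, so the place of the members among these lists depends on the amount added.

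The tested genes nearest in both levels to Mest, Cdkn1c and Meg3, the 3 members with the highest mean FPKM of the 2 groups, were found by Euclidean distance over the log2(FPKM + 1) values of the 2 groups. Nearest to Mest were Col3a1, a fibrillar collagen chain, at 305 FPKM in the Tgfbr2-deficient group and 38.8 FPKM in the control group, and Sparc, a matrix glycoprotein, at 251 FPKM in the Tgfbr2-deficient group and 38.2 FPKM in the control group. Nearest to Meg3 were Sfrp2, a secreted WNT antagonist, at 116 FPKM in the Tgfbr2-deficient group and 15.6 FPKM in the control group, and Itm2a, a membrane protein, at 144 FPKM in the Tgfbr2-deficient group and 17.8 FPKM in the control group. Nearest to Cdkn1c were Ube2l6, at 301 FPKM in the Tgfbr2-deficient group and 61.7 FPKM in the control group, and Nudt4, at 391 FPKM in the Tgfbr2-deficient group and 102 FPKM in the control group. In control cells Igf2 and H19 stood above Meg3. Likeness here rests on 2 values per gene.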

How the data were processed

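RNA of 7 libraries was compared, grouped by the genotype in the labels. Per the labels' protocols, cDNA was made with SMART-Seq v4 from poly(A) RNA and libraries with Nextera XT, and reads were single-end of 50 bases. Neither kit marks strand. Per the submitters' processing notes, the build was mm10 and the tools TopHat2, Cufflinks 2.2.1 and Cuffdiff. The sources used here do not give the annotation, the scaling between libraries or the options of the test.

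Per the file headers, the deposited table is gene-level Cuffdiff output with 1 FPKM value per group and gene and 0 columns per library. The deposited log2 fold is Tgfbr2-deficient over control with no pseudocount, and it matched the log2 ratio of the FPKM values within 1.4e-05. The deposited test statistic is a score that was not used further. Each p-value and q-value is the deposited one, from Cuffdiff run by the authors. Genes were counted at status OK, at least 1 FPKM in either group and q under 0.05 (python 3.11.15, pandas 2.3.3), and counting was tested on simulated data. Folds in the text are log2 of (FPKM + 1). No model could be fitted to 1 value per group, and no set test was run.

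The table's starts count from 0, since 10541 of 21460 symbols had a start 1 below the RefSeq start and 673 the same start, so 1 was added. Gene names come from the table, with RefSeq synonyms (GRCm38.p6) where a listed symbol was missing, and annotation from GENCODE M21 (GRCm38). The members and lists were chosen with earlier results of these data known. Genes named outside the members were, in each list, up to 4 with the smallest p among those past the threshold (ties by size of fold), or the 2 most abundant where none passed, and every gene of a cluster or family list of at most 7. The genes nearest to the 3 members with the highest mean FPKM of both groups were found by distance over both levels. All other genes named were chosen after their values were seen. The alternatives tried were the FPKM filter, the q threshold, a minimum fold, recomputed q-values, rows of several symbols, the pseudocount and the centring of folds.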

Additional observations from a re-analysis of the deposited data

How the results depend on the processing

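All 10 members were called higher with no FPKM filter, at q under 0.01, with a log2 fold of at least 1, with q recomputed over the filtered genes and with rows of several symbols left out, and 9 were at a minimum of 5 FPKM, which leaves out Rian. The median fold of the members, 2.41, became 2.95 when centred on the 28 ribosomal protein genes, which adds 0.54 to every log2 fold, and 2.52 with a pseudocount of 0.1 FPKM. That pseudocount moved the medians of lists with many low levels further: endothelial markers to 3.68, pericyte to 2.97, neuron to 1.58, neural progenitor to 1.53, megakaryocyte to 4.79, mast cell to 5.41, the cluster of Dlk1 and Dio3 to 2.67 and the IGF axis to 1.86. Over all tested genes, the count higher fell to 1643 at a minimum of 5 FPKM, and the count lower to 1026 at q under 0.01 and 368 with a log2 fold of at least 1. At a minimum of 5 FPKM, 11 paternally and 9 maternally expressed imprinted genes were higher, fewer since fewer were tested. Lower calls in the lists were fewer under stricter rules: at q under 0.01 the IGF axis kept 1 of 3, the CDK inhibitors and the imprinted gene network 0 of 1 (Cdkn2c and Gatm) and the imprint maintenance factors 0 of 3, and with a log2 fold of at least 1 all 4 lists had 0. Of the called genes in the lists, Igf2bp1, Eed and Ehmt2 turned direction when centred on ribosomal protein genes. The 0.54 added by that centring is also most of the size of other lower folds, such as −0.61 for Uhrf1 and for Gatm and −0.63 for Plagl2. Other lower folds were larger, such as −0.95 for Igfbp4 and −0.93 for Ascl2. No paired analysis was possible because the table holds 1 value per group, and for the same reason leaving out each replicate was not run. Depth is unknown, so it could not be said what it limits for Rian and other genes near 1 FPKM.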

Other observations

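Of 10 tested factors that set or keep imprints, 1 was higher and 3 were lower. Over all tested genes the shares were 23.9% higher and 14.7% lower. Zfp57, a zinc finger protein that protects methylated imprints in the mouse embryo, was higher, at 9.76 FPKM in the Tgfbr2-deficient group and 2.89 FPKM in the control group (q = 0.00029 in the authors' deposited table). Uhrf1, which brings DNA methyltransferase 1 to newly copied DNA, was lower, at 48.0 FPKM in the Tgfbr2-deficient group and 73.9 FPKM in the control group (q = 0.0149 in the authors' deposited table). Eed, a subunit of the Polycomb complex PRC2, had 26.4 FPKM in the Tgfbr2-deficient group and 38.1 FPKM in the control group, and Ehmt2, a histone H3 methyltransferase, had 37.2 FPKM in the Tgfbr2-deficient group and 52.7 FPKM in the control group. Both passed as lower at q = 0.0412 and 0.0448 in the authors' deposited table, but their log2(FPKM + 1) folds of −0.51 and −0.49 become 0.03 and 0.05 when centred on ribosomal protein genes. Dnmt1, the maintenance methyltransferase, had 44.3 FPKM in the Tgfbr2-deficient group and 58.9 FPKM in the control group and did not pass (q = 0.138 in the authors' deposited table). Over the 10 tested factors the median log2(FPKM + 1) fold was −0.30, against 2.41 for the imprinted growth-control genes and −0.08 for all tested genes, and it becomes 0.24 with that centring. The median level of the factors was 22.8 FPKM in the Tgfbr2-deficient group and 34.0 FPKM in the control group. Of the 1335 tested genes with a mean between 21.8 and 33.7 FPKM, 327 were lower, with a median fold of −0.32 before centring.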
